A study of Mus musculus with 12 samples.

Results

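The genotype by TCDD interaction asks, for every probe set, how far the response of the liver to dioxin differed between mice without and with Tiparp. It was computed as the TCDD effect in knockout (KO) livers, KO TCDD minus KO corn oil, minus the TCDD effect in wild-type (WT) livers, WT TCDD minus WT corn oil. All 12 of the 12 arrays of the series and all 23332 probe sets of the deposited table entered. A positive interaction means a response that was higher, or less negative, in KO livers. Values are on the log2 scale, so that a difference of 1 is a doubling.

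Each array held liver RNA of mice aged 8 weeks on a mixed C57BL/6;129Sv background. The 4 groups, with 3 arrays each labelled as biological replicates, were Tiparp -/- mice given TCDD, Tiparp -/- mice given corn oil, Tiparp +/+ mice given TCDD and Tiparp +/+ mice given corn oil. TCDD (2,3,7,8-tetrachlorodibenzo-p-dioxin) was injected into the peritoneum at 30 µg per kg of body weight. The labels do not give the interval between dose and collection, the hour of collection, the sex, or the design of the Tiparp allele, and they do not say whether mice were littermates.

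TCDD binds the aryl hydrocarbon receptor (AhR), which moves to the nucleus, pairs with ARNT and switches on genes through dioxin response elements, whose core is GCGTG. Tiparp, also called PARP7, is one of those target genes. It encodes a mono-ADP-ribosyltransferase that in turn represses AhR, and the AhR repressor encoded by Ahrr does so as well. In liver the best known AhR targets encode the drug-metabolising enzymes Cyp1a1, Cyp1a2 and Cyp1b1.

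The arrays were close in level and range, but the KO corn oil arrays had the highest medians. These were 6.98, 7.00 and 6.98, against 6.91 to 6.96 on the other 9 arrays. Values ran from 1.05 to 14.16, and arrays of 1 group correlated at 0.979 to 0.989 across probe sets, which are not independent replicates. The mean level of 11 measured hepatocyte markers was 12.84 to 12.89 in KO TCDD, 12.89 to 12.96 in KO corn oil, 12.89 to 12.96 in WT TCDD and 12.84 to 12.88 in WT corn oil livers, with albumin (Alb) near the top of the scale in each group. Tiparp itself read 6.82, 6.70 and 6.91 in KO TCDD, 7.10, 6.20 and 5.58 in KO corn oil, 9.91, 10.82 and 10.84 in WT TCDD and 7.42, 7.41 and 7.33 in WT corn oil livers. All 6 KO arrays were thus below all 6 WT arrays, although the labels do not place the probe set relative to the part of the gene altered in the knockout. The KO corn oil arrays stood apart on the first principal component, at 45.8, 36.7 and 17.2, against -30.5 to 7.99 on the other 9 arrays, and had the widest spread, with a median SD within the group of 0.164 against 0.129 to 0.14.

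The response to TCDD differed between genotypes mainly in these ways. Genes such as Ecel1, Tnfaip2, Gadd45b and Tnfrsf19 were induced strongly in KO livers and less in WT livers (1.44-fold to 2.12-fold). Their KO TCDD arrays were above the other 9, and their WT TCDD arrays were above their WT corn oil arrays. Other called genes such as Znrd1, Imp3, Rcl1 and Ccne1 fell under TCDD in KO livers alone, to about the level of the WT groups. For these the KO corn oil arrays were above the other 9, and the WT TCDD arrays were above the WT corn oil arrays. KO corn oil set Rcl1 apart less clearly, as its other means had a range of 0.27 against a distance of 0.48. No called gene responded less in KO than in WT livers in the same direction.

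With limma and Benjamini-Hochberg adjustment over all probe sets, 37 of 23332 probe sets had an interaction with an adjusted p below 0.05 (0.159%), which is the meaning of called below. Of these 25 lay above 0 (0.107% of all) and 12 below 0 (0.0514%), and their adjusted p-values ran from 0.0242 to 0.0484. At an unadjusted p below 0.05 the numbers were 3446 (14.8%), with 1083 above 0 (4.64%) and 2363 below 0 (10.1%), so the balance of directions was the other way round. Rescaling the deposited values by quantile normalization gave 51 calls above and 10 below 0, and 1538 and 1552 at the unadjusted threshold. The median interaction over all probe sets was -0.05. Exactly 1 gene symbol was known for 29 called probe sets, which stand for 28 genes, 7 had no symbol and 1 had several. With 3 arrays a group, the p-values measure the spread between these arrays only.

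The set of calls depended on single arrays. Without KO TCDD replicate 1, 2 or 3 there were 59, 91 and 5 calls, without KO corn oil replicate 1, 2 or 3 there were 43, 3 and 546, without WT TCDD replicate 1, 2 or 3 there were 24, 1 and 4, and without WT corn oil replicate 1, 2 or 3 there were 1, 0 and 0. In the fits with 0 calls limma gave 2699 and 3428 probe sets an unadjusted p below 0.05. Each of the 28 called genes kept its sign in all 12 of these fits. Their interactions had been picked as large against their SE, so the sign could hardly turn and its keeping is no support. Ecel1 lay between 2.98 and 3.69, Selenoi between 1.65 and 1.90, and Znrd1 between -1.35 and -1.16.

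**Figure D1:**
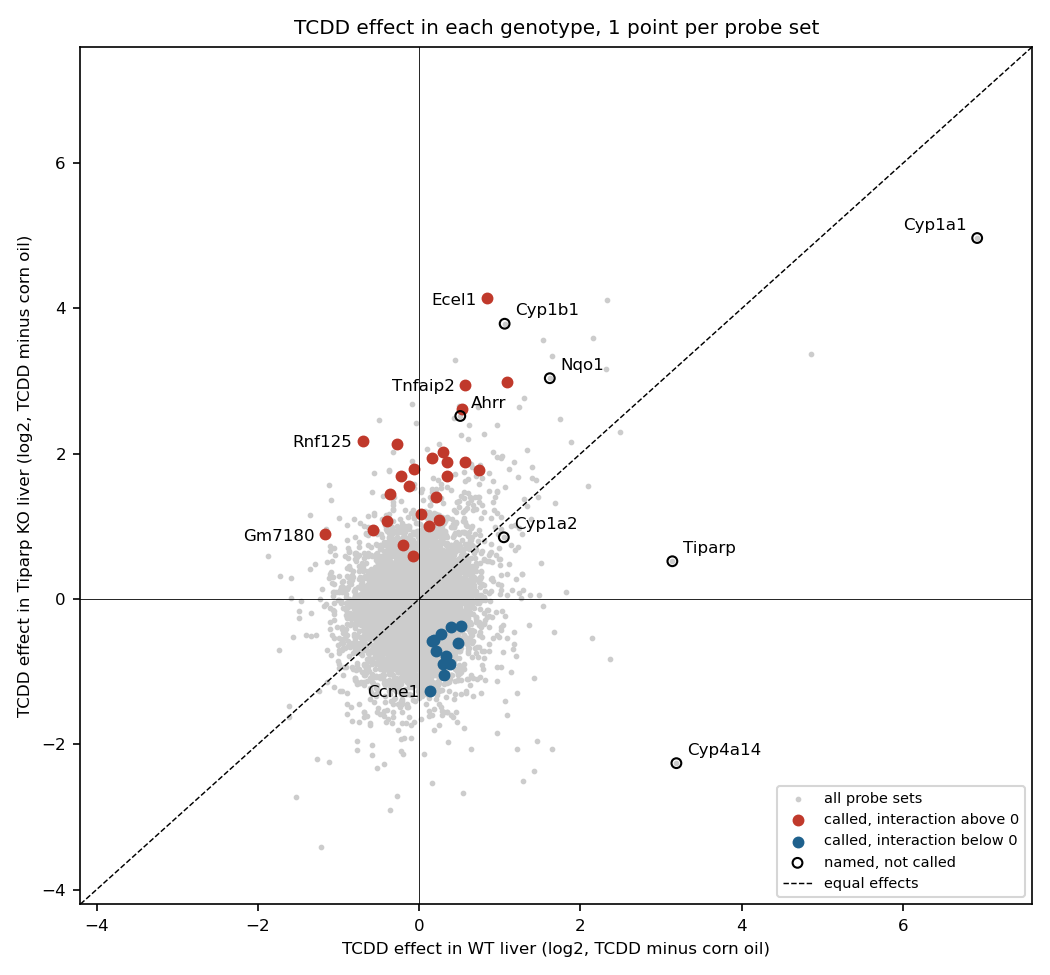
TCDD effect in KO livers (vertical, log2, TCDD minus corn oil) against that in WT livers (horizontal, same unit), 1 point per probe set. The 25 called probe sets with an interaction above 0 lie above the dashed line of equal effects and the 12 below 0 lie under it, with WT effects far smaller than that of Cyp1a1 at 6.92. Open circles are named genes that were not called.

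Both arms of the interaction were read from the same fit. The KO effect of TCDD was called for 1303 probe sets (5.58%), 516 up and 787 down, and the WT effect for 27 (0.116%), all 27 up. All 37 probe sets with a called interaction had a called KO effect, and 1, that of Pmm1, had a called WT effect. Among the 25 above 0 the median KO effect was 1.70 and the median WT effect 0.12, and among the 12 below 0 they were -0.66 and 0.31. In 14 the TCDD effects had the same sign and the KO effect was larger, in 23 the signs were opposite, and in 0 the KO effect was the smaller one. Over all probe sets these shares were 33.1%, 47.6% and 19.2%, and over those with an unadjusted p below 0.05 they were 19.8%, 79.2% and 1.02%. The opposite sign often rested on a WT effect close to 0: in 14 of the 23 both effects had an unadjusted p below 0.05, and in the others the WT effect did not.

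Which group set a gene apart was described by the group mean farthest from the mean of the other 3. This was KO TCDD for 17 called probe sets, all high, and KO corn oil for 17, of which 10 were high and 7 low. WT corn oil was farthest for 3 and WT TCDD for 0. Settings that called more probe sets tilted the split: KO TCDD and KO corn oil were farthest in 198 and 431 with array weights, in 118 and 246 without the lowest 50% of probe sets and in 63 and 84 with only probe sets of 1 symbol, but in 34 and 25 after quantile normalization. The range of the other 3 means was less than 0.5 of that distance in 12 of the 17 for KO TCDD and in 7 of the 17 for KO corn oil. All 37 had the 3 arrays of the farthest group outside the range of the other 9, against 43.9% at an unadjusted p below 0.05 and 12.3% of all probe sets. The calls were picked from these same values, so this is no independent support. KO corn oil was also farthest in 52.7% of the 3446 probe sets with an unadjusted p below 0.05, against 33.6% of all, and KO TCDD in 28.8% against 29.9%.

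**Figure D2:**
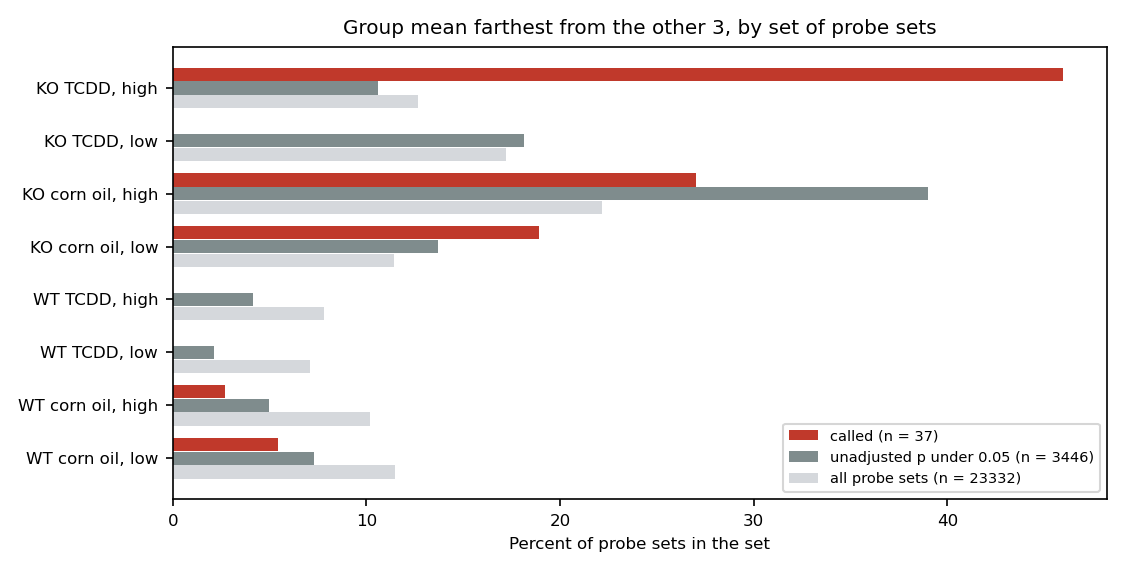
Share of probe sets (percent) whose farthest group mean was the named group, high or low, among the 37 called, the 3446 with an unadjusted p below 0.05 and all 23332. Called probe sets gather in KO TCDD high with 17 and KO corn oil high with 10, and probe sets at the unadjusted threshold most often in KO corn oil high with 39%.

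The genes set apart by KO TCDD were led by Ecel1, which encodes a membrane metalloprotease related to endothelin-converting enzymes. Ecel1 read 9.80, 10.70 and 11.22 in KO TCDD, 6.49, 6.41 and 6.40 in KO corn oil, 6.66, 7.29 and 7.39 in WT TCDD and 6.29, 6.31 and 6.22 in WT corn oil livers. The KO TCDD arrays were far above all others, and the WT TCDD arrays lay slightly above both corn oil groups. The KO effect was 17.6-fold (4.14 in log2) and the WT effect 1.79-fold (0.84, adjusted p = 0.573), for an interaction of 3.30 ± 0.43 (SE, adjusted p = 0.0292, limma).

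Tnfaip2, a gene induced by tumour necrosis factor, read 11.69, 11.87 and 12.10 in KO TCDD, 9.22, 9.11 and 8.47 in KO corn oil, 9.79, 10.20 and 9.94 in WT TCDD and 9.48, 9.21 and 9.53 in WT corn oil livers, an interaction of 2.38 ± 0.28 (SE, adjusted p = 0.0242, limma). Tnfrsf19, a receptor of the TNF receptor superfamily, read 9.58, 9.96 and 9.62 in KO TCDD, 6.68, 6.51 and 7.00 in KO corn oil, 7.53, 7.89 and 8.31 in WT TCDD and 7.00, 6.77 and 6.70 in WT corn oil livers. In both genes the TCDD arrays were above the corn oil arrays of the same genotype without overlap, and the step was larger in KO livers: 7.75-fold against 1.48-fold for Tnfaip2 and 7.94-fold against 2.12-fold for Tnfrsf19. The stress-inducible Gadd45b read 9.71, 10.12 and 9.59 in KO TCDD, 7.45, 7.28 and 6.84 in KO corn oil, 7.51, 6.96 and 6.93 in WT TCDD and 6.67, 6.67 and 6.48 in WT corn oil livers. Its KO TCDD arrays were far above the rest, and the WT TCDD arrays lay just above the WT corn oil arrays. Its interaction was 2.09 ± 0.29 (SE, adjusted p = 0.0293, limma). It was also the single called gene among 12 measured p53 target genes, whose median interaction was 0.09.

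St8sia1, which encodes GD3 ganglioside synthase, was called by both of its probe sets, with interactions of 1.86 and 1.80. The brighter one read 7.62, 7.62 and 8.35 in KO TCDD, 6.28, 5.97 and 5.97 in KO corn oil, 5.74, 5.99 and 5.81 in WT TCDD and 5.90, 5.94 and 5.92 in WT corn oil livers. There was no step in WT livers, where the effect was -0.07. Lrrc8d, a subunit of volume-regulated anion channels, had the KO TCDD group high (11.31, 11.03 and 11.36) and the KO corn oil group low (8.79, 9.14 and 9.68), with WT TCDD at 10.15, 10.40 and 10.23 and WT corn oil at 9.90, 10.01 and 9.98 between them. Its interaction was 1.73 ± 0.27 (SE, adjusted p = 0.0449, limma).

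**Figure D3:**
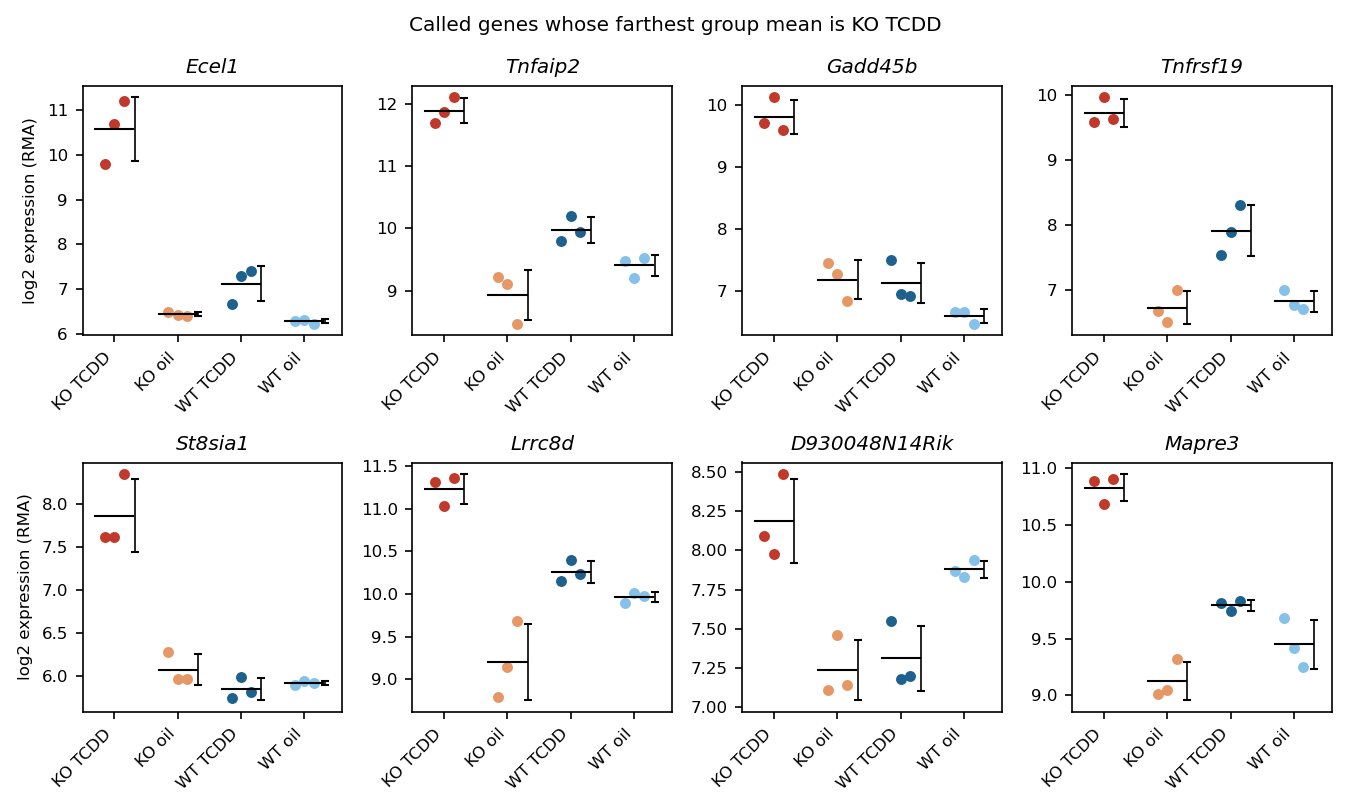
Log2 expression on each array (points) with the group mean (line) and SD (bar, n = 3) for the 8 called genes with the largest interactions among those whose farthest mean was KO TCDD (oil is corn oil). For St8sia1 the probe set with the larger interaction is drawn. The 3 KO TCDD arrays are above the other 9 in every panel.

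The called genes D930048N14Rik, Acacb, Mapre3, Pigx, Fgf23, Srsf10, Pmm1, Pgd and Ctrb1 fell outside the rule for naming genes and are described because they completed the list, after their values were seen. Srsf10, a splicing factor, read 9.90, 10.25 and 10.32 in KO TCDD, 9.08, 8.89 and 9.0 in KO corn oil, 9.02, 8.91 and 8.99 in WT TCDD and 9.01, 8.98 and 8.87 in WT corn oil livers, so that 9 arrays were level and the 3 KO TCDD arrays were higher. The same form was seen for Fgf23, which encodes a phosphate-regulating hormone, at 8.16, 8.50 and 8.34 in KO TCDD livers and 6.68 to 7.18 in the other 9. Mapre3, a microtubule end-binding protein, had an interaction of 1.36 and Pigx, a subunit of the first mannosyltransferase of GPI-anchor synthesis, one of 1.30. D930048N14Rik rose in KO livers by 0.95 and had a WT effect of -0.57, with no overlap between TCDD and corn oil arrays in either genotype.

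Ctrb1 encodes chymotrypsinogen, a digestive enzyme of the exocrine pancreas, and read 7.31, 7.15 and 7.40 in KO TCDD, 6.06, 6.19 and 6.33 in KO corn oil, 6.37, 6.39 and 6.26 in WT TCDD and 6.18, 6.04 and 6.09 in WT corn oil livers. It was 1 of 9 measured pancreas and fat markers. The interactions of the other 8 lay between -0.20 and 0.08, and the pancreatic markers Cela1, Cela3b, Prss2, Cpa1 and Cel had KO effects of -0.01, 0.18, 0.03, 0.03 and 0.13. The mean level of the list was 5.79 to 5.92 in KO TCDD, 5.66 to 5.78 in KO corn oil, 5.72 to 5.77 in WT TCDD and 5.62 to 5.69 in WT corn oil livers. In bulk tissue, fewer cells of a type and less RNA per cell cannot be told apart.

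AhR target genes lay on both sides of 0. Of 15 measured, 6 had an interaction above 0 and 3 one below 0 at an unadjusted p below 0.05, against 4.2% and 11.3% of all 14860 genes, and the median was 0.46 against -0.05. The 15 and the 3 below 0 include Tiparp itself, at -2.62. Its smaller response in KO livers follows from the knockout and says nothing about the other targets. Pmm1, a phosphomannomutase, was the called member and read 8.66, 8.66 and 8.66 in KO TCDD, 6.85, 6.93 and 6.87 in KO corn oil, 7.39, 7.63 and 7.65 in WT TCDD and 6.84, 6.76 and 6.85 in WT corn oil livers. The corn oil groups were level and both TCDD groups higher, KO by 1.78 and WT by 0.74, both called, for an interaction of 1.04 ± 0.11 (SE, adjusted p = 0.0242, limma).

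Among the other targets, Ahrr read 7.63, 8.97 and 9.01 in KO TCDD, 6.00, 6.02 and 6.03 in KO corn oil, 6.26, 6.57 and 6.44 in WT TCDD and 5.90, 5.88 and 5.95 in WT corn oil livers. Its interaction of 2.01 ± 0.42 (SE, adjusted p = 0.0841, limma) was not called, and KO TCDD replicate 1 lay well under the other 2 arrays of its group. Cyp1b1 had the same low replicate, at 8.73 against 10.95 and 10.97, and an interaction of 2.72 ± 0.69 (SE, adjusted p = 0.116, limma). Of the 12 fits that leave out 1 array, only the one without that array called either gene, Ahrr at 2.46 (adjusted p = 0.000198, limma) and Cyp1b1 at 3.47 (adjusted p = 0.000988, limma). In the others the adjusted p reached 0.19 for Ahrr and 0.241 for Cyp1b1. Nqo1, a quinone reductase, rose in both genotypes, by 3.04 in KO and 1.62 in WT livers, with an interaction of 1.42 ± 0.35 (SE, adjusted p = 0.107, limma). Other uncalled members chosen after their values were seen were Nfe2l2, which encodes NRF2, at 0.92 (adjusted p = 0.0688) and the UDP-glucose dehydrogenase gene Ugdh at 0.60 (adjusted p = 0.0754), both from limma and both with called effects in both genotypes.

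Cyp1a1 went the other way. Its induced level overlapped between genotypes, 13.27, 13.32 and 13.34 in KO TCDD and 13.19, 13.32 and 13.21 in WT TCDD livers, within 1 log2 unit of the highest value of any probe set. Its corn oil level was 8.84, 8.07 and 8.12 in KO and 5.47, 6.85 and 6.64 in WT livers. The interaction was -1.95 ± 0.45 (SE, adjusted p = 0.0973, limma). Of its terms, the difference between KO and WT was 0.07 under TCDD (adjusted p = 0.958, limma) and 2.02 under corn oil (adjusted p = 0.0278, limma). Cyp1a2 had effects of 0.85 in KO and 1.05 in WT livers and an interaction of -0.20 ± 0.20 (SE, adjusted p = 0.701, limma). Tiparp, the gene knocked out in the KO mice, had an interaction of -2.62 ± 0.49 (SE, adjusted p = 0.0742, limma), with effects of 0.52 in KO and 3.14 in WT livers.

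Pgd, a pentose phosphate pathway enzyme, was the called gene among 9 measured NRF2 antioxidant genes. It read 10.17, 10.34 and 10.41 in KO TCDD, 9.39, 9.23 and 9.30 in KO corn oil, 9.68, 9.72 and 9.85 in WT TCDD and 9.58, 9.65 and 9.65 in WT corn oil livers, a KO effect of 1.00, a WT effect of 0.12 and an interaction of 0.88 ± 0.12 (SE, adjusted p = 0.0292, limma). In that list 4 genes lay above 0 and 1 below at the unadjusted threshold, against 4.2% and 11.3% of all genes. The median was 0.13, and 0.50 without the lowest 25% of probe sets. Srxn1, sulfiredoxin, with an interaction of 0.94 (adjusted p = 0.0701, limma), and Gclc, the catalytic subunit of glutamate-cysteine ligase in glutathione synthesis, with 1.73 (adjusted p = 0.0973, limma), were chosen after their values were seen. Hmox1, haem oxygenase, had the interaction below 0, at -0.54.

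Called genes in which KO corn oil was the low group form a second set above 0. In Rnf125, Selenoi, Stard13 and Acacb, KO TCDD was also the highest group. The other means had ranges of 0.93, 0.92, 0.74 and 0.62 against distances of -1.79, -1.38, -1.1 and -0.79. KO corn oil alone thus did not set these genes apart. It did so more clearly in the probe set shared by Selenbp2 and Selenbp1, with a range of 0.28 against -2.18 and an interaction of 2.43. In a probe set without a symbol these were 0.58, -1.39 and 1.92. Rnf125, an E3 ubiquitin ligase, read 13.44, 12.85 and 13.54 in KO TCDD, 11.28, 10.64 and 11.37 in KO corn oil, 12.60, 12.59 and 11.84 in WT TCDD and 13.19, 13.09 and 12.84 in WT corn oil livers. The arrays of the treatments did not overlap in either genotype, and the directions were opposite: the KO effect was 2.18, the WT effect -0.70 (adjusted p = 0.603, limma), and the interaction 2.88 ± 0.38 (SE, adjusted p = 0.0292, limma). Under corn oil the difference of Rnf125, KO minus WT, was -1.94 (adjusted p = 0.0216, limma).

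Selenoi, the ethanolaminephosphotransferase that makes phosphatidylethanolamine, read 11.84, 11.76 and 11.98 in KO TCDD, 9.81, 9.87 and 10.07 in KO corn oil, 11.32, 11.16 and 10.82 in WT TCDD and 11.03, 10.89 and 10.91 in WT corn oil livers. KO corn oil was the lowest and KO TCDD the highest group, with both WT groups between them and overlapping. Its interaction was 1.79 ± 0.18 (SE, adjusted p = 0.0242, limma). Among 8 measured genes of the CDP-ethanolamine and CDP-choline pathways, a list added after the called genes were seen, it was the 1 called, and the median was 0.11. Stard13 read 10.11, 10.37 and 10.51 in KO TCDD, 8.63, 8.52 and 9.20 in KO corn oil, 9.53, 9.75 and 9.50 in WT TCDD and 9.68, 9.69 and 9.77 in WT corn oil livers, an interaction of 1.67 ± 0.24 (SE, adjusted p = 0.0315, limma).

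Acacb, the acetyl-CoA carboxylase whose malonyl-CoA inhibits fatty acid entry into mitochondria, read 10.64, 10.62 and 10.16 in KO TCDD, 9.44, 9.15 and 9.63 in KO corn oil, 9.78, 9.88 and 9.91 in WT TCDD and 10.19, 10.37 and 10.21 in WT corn oil livers. The TCDD arrays were all above the corn oil arrays in KO livers and all below them in WT livers, with effects of 1.07 and -0.40. It was the 1 called gene of 13 measured de novo lipogenesis genes, whose median was 0.14. Acaca, which encodes the other acetyl-CoA carboxylase, had an interaction of 0.22 and fatty acid synthase (Fasn) one of 0.14. Gm7180 was the 1 called gene whose farthest mean was WT corn oil, high. It read 6.02, 5.94 and 5.88 in WT corn oil, 5.75, 5.49 and 5.80 in KO TCDD, 4.38, 5.09 and 4.91 in KO corn oil and 4.95, 4.98 and 4.39 in WT TCDD livers. The other means had a range of 0.91 against a distance of 0.86, so WT corn oil alone did not set it apart.

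The 12 calls below 0 had 1 form in common. In all 12 the TCDD arrays were below the corn oil arrays in KO livers and above them in WT livers, without overlap in either, a pattern held by 1.24% of all probe sets. KO and WT corn oil arrays differed in all 12 (457 probe sets called in that comparison, 1.96% of all), whereas KO and WT TCDD livers differed in 0 of the 12 (56 called, 0.24% of all). The shared form and these differences come from the same values that picked the 12, and the differences are terms of the interaction. Neither is independent evidence. At this number of arrays a p above the threshold does not show that the TCDD groups were alike, and in 8 of the 12 their arrays did not overlap (18.3% of all probe sets). Median differences between KO and WT were -0.24 under TCDD and 0.68 under corn oil. The reverse pattern, KO TCDD arrays above and WT TCDD arrays below their corn oil arrays, was held by 4 of the 25 calls above 0 and 0.36% of all probe sets, so that 1.6% of all had one or the other. For the 25 calls above 0, the genotypes differed under TCDD in 14 and under corn oil in 8, with medians of 0.97 and -0.39.

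Ccne1, the cyclin of entry into S phase, read 5.69, 6.12 and 5.99 in KO TCDD, 7.52, 7.20 and 6.86 in KO corn oil, 6.18, 6.22 and 6.14 in WT TCDD and 6.06, 6.05 and 6.05 in WT corn oil livers. The KO corn oil arrays were above all others, and the other groups lay close together. Its KO effect was -1.26, its WT effect 0.13 (adjusted p = 0.932) and its interaction -1.39 ± 0.22 (SE, adjusted p = 0.0484, limma). Klf10, a transcription factor induced by TGF-beta, read 7.27, 7.37 and 7.32 in KO TCDD, 8.65, 8.05 and 8.41 in KO corn oil, 7.57, 7.59 and 7.55 in WT TCDD and 7.09, 7.27 and 7.42 in WT corn oil livers, an interaction of -1.36 ± 0.19 (SE, adjusted p = 0.0315, limma). Of 19 measured cell cycle genes Ccne1 was the 1 called, 4 lay below and 0 above 0 at an unadjusted p below 0.05, and the median was 0.04. Of all 14860 genes 9 were called below 0, and 11.3% lay below and 4.2% above 0 at the unadjusted threshold. The mitotic genes Mki67 and Cdk1 had interactions of 0.50 and 0.04.

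Genes that make ribosomes were among these. Znrd1, a subunit of RNA polymerase I, read 8.04, 8.35 and 8.20 in KO TCDD, 9.13, 9.21 and 8.93 in KO corn oil, 8.31, 8.45 and 8.38 in WT TCDD and 8.14, 7.77 and 8.09 in WT corn oil livers, an interaction of -1.27 ± 0.17 (SE, adjusted p = 0.0292, limma). Imp3 and Rcl1, both needed to process the precursor of 18S ribosomal RNA, had interactions of -0.73 ± 0.10 and -0.76 ± 0.11 (SE, adjusted p = 0.0315 for each, limma). Imp3 read 9.31, 9.32 and 9.15 in KO TCDD, 9.83, 9.85 and 9.83 in KO corn oil, 9.29, 9.44 and 9.40 in WT TCDD and 9.20, 9.18 and 9.28 in WT corn oil livers. A list of 46 ribosome biogenesis genes was added after these calls were seen, so its direction is no independent evidence. Of 39 measured, 37 had an interaction below 0, 22 of them at an unadjusted p below 0.05 and 3 called. Of all 14860 genes 8917 lay below 0, 11.3% did so at that threshold and 9 were called below 0. The median of the list was -0.52, with a median KO effect of -0.32 and a median WT effect of 0.23. The largest uncalled values in it were those of Nop58 at -1.44 (adjusted p = 0.169, limma) and Nip7 at -1.17 (adjusted p = 0.0973, limma). The mean level of the list was 8.56 to 8.87 in KO TCDD, 8.79 to 9.25 in KO corn oil, 8.71 to 8.81 in WT TCDD and 8.46 to 8.65 in WT corn oil livers, so the KO groups overlapped slightly and the WT groups did not.

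The other called genes below 0 act in varied steps. Yrdc, which modifies transfer RNA, had an interaction of -1.09, Dda1, a partner of the CUL4-DDB1 ubiquitin ligase, one of -0.92, Slc35a4, of the SLC35 transporter family, one of -1.11, and Ccdc137 one of -0.76. Slc35a4 read 8.82, 8.89 and 8.74 in KO TCDD, 9.81, 9.61 and 9.39 in KO corn oil, 8.77, 8.92 and 8.91 in WT TCDD and 8.57, 8.46 and 8.59 in WT corn oil livers.

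**Figure D4:**
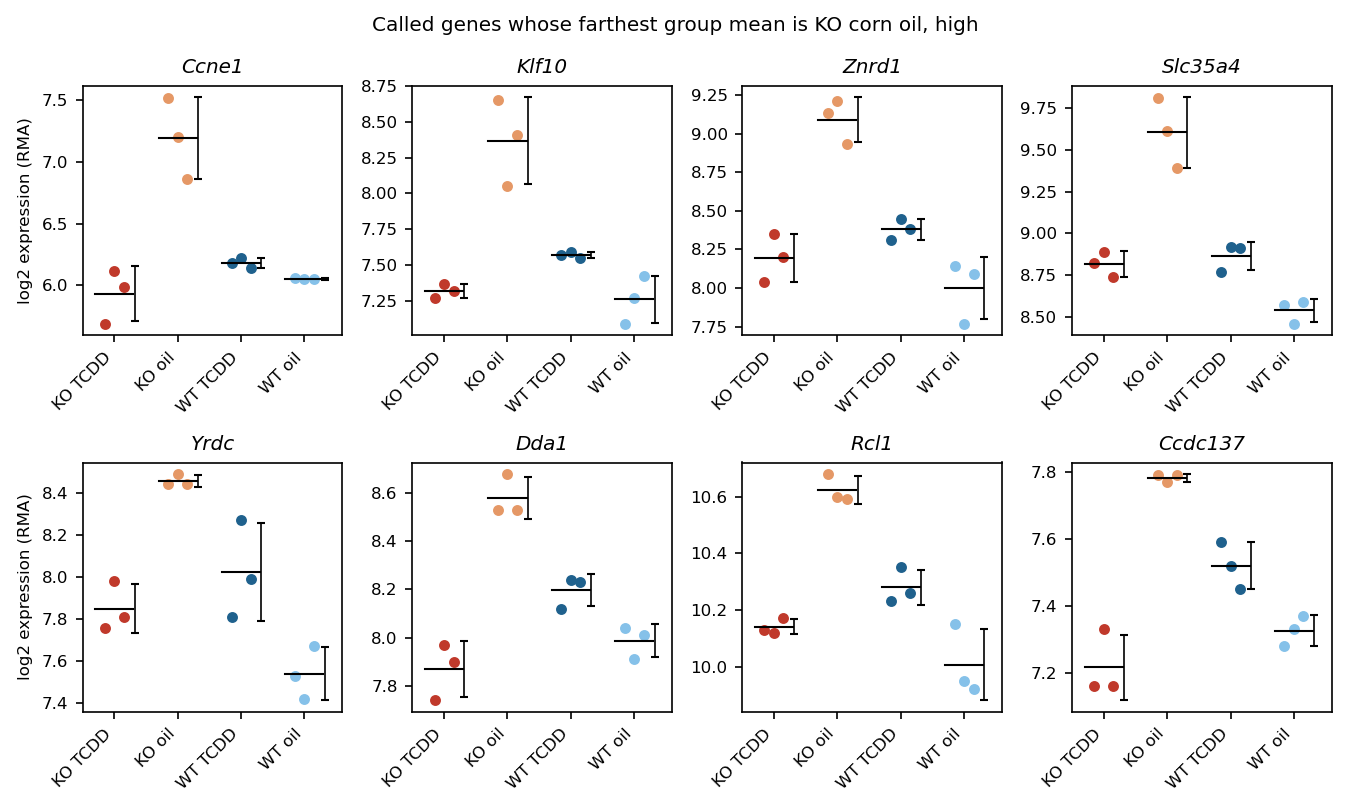
Log2 expression on each array (points) with the group mean (line) and SD (bar, n = 3) for the 8 called genes with the largest interactions among those whose farthest mean was KO corn oil, high (oil is corn oil). KO corn oil arrays are above the other 9 in every panel, and WT TCDD arrays are above WT corn oil arrays.

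Averaged over their lists, markers of neutrophils and of endothelium were highest on the KO corn oil arrays. The mean level of 12 measured neutrophil markers was 6.01 to 6.22 in KO TCDD, 6.29 to 6.59 in KO corn oil, 5.84 to 6.23 in WT TCDD and 5.87 to 6.15 in WT corn oil livers, and 4 lay below and 1 above 0 at an unadjusted p below 0.05. That of 13 measured endothelial markers was 9.03 to 9.22 in KO TCDD, 9.55 to 9.70 in KO corn oil, 9.07 to 9.12 in WT TCDD and 9.29 to 9.47 in WT corn oil livers, with 5 below and 0 above 0 at that threshold. Of all 14860 genes 5919 lay above and 8917 below 0, and 4.2% and 11.3% did so at that threshold. None of the neutrophil or endothelial markers was called by limma. The largest interactions were those of Retnlg, expressed by neutrophils, at -1.39 (adjusted p = 0.227, limma) and Bmp2, made by sinusoidal endothelium, at -0.95 (adjusted p = 0.0754, limma). Of 12 stellate cell and matrix markers 9 lay above and 3 below 0, of which 4 above and 0 below at an unadjusted p below 0.05, with a median of 0.13. The part of these cells in the calls was not tested.

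The promoters of the called genes were examined for the dioxin response element core. RefSeq windows of 300 bases on GRCm38.p6, from 250 bases before to 50 after the start, were found for 24 of the 28 called genes. The genes were grouped by their farthest mean, whether or not that group alone set them apart. At least 1 GCGTG on either strand was held by 10 of 14 genes with KO TCDD farthest and high (71.4%). It was held by 4 of 7 with KO corn oil farthest and high (57.1%) and 3 of 3 with it farthest and low. The share of 11894 measured genes was 47.3%. The mean GC content of these windows was 61.4%, 65.1% and 56% against 57.9%. The E-box CACGTG was held by 2 of the 14 genes (14.3%) against 10.1% of measured genes. The letters are a description of these windows, not sites of binding. The windows shown belong to a pair of genes set apart by high KO TCDD arrays with several matches (St8sia1 with 3, Gadd45b with 2), to Ecel1, which had the largest called interaction and no match, and to Ccne1, set apart by high KO corn oil arrays, with 3. They lie at chr6:142964403-142964702 (minus strand), chr10:80929841-80930140 (plus strand), chr1:87156307-87156606 (minus strand) and chr7:38107441-38107740 (minus strand), and are given 5′ to 3′ on the strand of the gene with GCGTG or its reverse complement CACGC in capitals.
St8sia1: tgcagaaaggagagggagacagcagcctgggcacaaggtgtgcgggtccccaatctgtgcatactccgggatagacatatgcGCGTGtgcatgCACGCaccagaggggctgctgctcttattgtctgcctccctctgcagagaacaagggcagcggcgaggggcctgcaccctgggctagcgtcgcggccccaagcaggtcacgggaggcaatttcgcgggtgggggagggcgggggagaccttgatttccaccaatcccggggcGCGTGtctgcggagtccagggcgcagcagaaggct
Gadd45b: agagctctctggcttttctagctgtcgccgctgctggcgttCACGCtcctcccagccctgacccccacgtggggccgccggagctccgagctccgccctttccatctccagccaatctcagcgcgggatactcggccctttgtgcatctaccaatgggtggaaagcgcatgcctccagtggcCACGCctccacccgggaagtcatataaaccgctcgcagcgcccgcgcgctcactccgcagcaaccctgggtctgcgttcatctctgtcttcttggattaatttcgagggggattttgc
Ecel1: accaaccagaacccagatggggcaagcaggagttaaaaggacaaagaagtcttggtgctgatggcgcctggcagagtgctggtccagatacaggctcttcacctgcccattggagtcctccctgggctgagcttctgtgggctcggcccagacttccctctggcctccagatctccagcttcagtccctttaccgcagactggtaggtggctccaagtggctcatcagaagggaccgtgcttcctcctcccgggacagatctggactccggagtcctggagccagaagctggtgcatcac
Ccne1: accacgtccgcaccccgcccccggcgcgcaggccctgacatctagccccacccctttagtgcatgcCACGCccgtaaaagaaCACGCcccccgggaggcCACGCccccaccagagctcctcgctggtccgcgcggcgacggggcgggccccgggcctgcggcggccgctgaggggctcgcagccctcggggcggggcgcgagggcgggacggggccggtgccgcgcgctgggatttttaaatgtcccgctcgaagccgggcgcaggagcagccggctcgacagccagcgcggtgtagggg

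Among genes with 1 symbol, the interactions largest in size below 0 were not called, whereas the largest above 0, that of Ecel1 at 3.30, was. Uncalled genes named from here on were chosen after their values were seen, from lists that were themselves drawn up with earlier results of these data known. Cyp4a14, a fatty acid hydroxylase under control of PPARA, had the largest of all, -5.46 ± 1.33 (SE, adjusted p = 0.107, limma). It read 8.55, 8.18 and 6.43 in KO TCDD, 9.18, 10.66 and 10.11 in KO corn oil, 12.80, 10.49 and 12.00 in WT TCDD and 10.61, 8.20 and 6.90 in WT corn oil livers. The arrays of each group were spread widely and the WT groups overlapped. All 12 measured fatty acid oxidation genes had an interaction below 0, with a median of -0.35, and in 11 of them WT TCDD was the farthest group. Of all 14860 genes 8917 lay below 0 and 2000 had WT TCDD farthest. Only 2 of the 12, Cyp4a14 and Cpt1a, reached an unadjusted p below 0.05, and 0 were called by limma. Cpt1a, which brings fatty acids into mitochondria, had an interaction of -0.40 with effects of -0.10 in KO and 0.30 in WT livers.

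The clock genes lay on opposite sides of 0 by their phase. The 5 measured genes that run with Bmal1 (Arntl) all had an interaction above 0, 3 at an unadjusted p below 0.05, with a median of 0.98, and 7 of the 8 that run with Per and Rev-erb had one below 0, 5 at that threshold, with a median of -1.60. Of all 14860 genes 5919 lay above and 8917 below 0, and 4.2% and 11.3% did so at an unadjusted p below 0.05. None of the clock genes was called by limma. Arntl read 9.13, 7.80 and 9.24 in KO TCDD, 8.52, 6.69 and 6.25 in KO corn oil, 8.58, 8.64 and 6.77 in WT TCDD and 9.02, 9.17 and 9.17 in WT corn oil livers. Dbp, an output gene of the clock that runs against it, read 7.40, 9.17 and 7.46 in KO TCDD, 8.59, 10.41 and 11.22 in KO corn oil, 8.52, 8.70 and 10.88 in WT TCDD and 7.51, 8.00 and 7.64 in WT corn oil livers. In both genes the WT corn oil arrays were level and the arrays of the other groups were spread widely. A clock index, the mean of the first set minus that of the second, was 1.29, -0.56 and 1.14 in KO TCDD, -0.12, -1.58 and -1.72 in KO corn oil, 0.37, 0.21 and -1.63 in WT TCDD and 0.99, 0.70 and 1.21 in WT corn oil livers. All 3 KO corn oil arrays were thus below all 3 WT corn oil arrays, while the KO TCDD and KO corn oil arrays overlapped. With this index as a covariate, a fit chosen after seeing the data, limma called 0 probe sets (2379 at an unadjusted p below 0.05). The index was made from genes with interactions of their own and overlaps with the tested contrast. This fit therefore cannot tell a part of the clock from the interaction. The 28 called genes kept the sign of their interaction, which is no support, as they were picked for large interactions.

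Of 16 measured endoplasmic reticulum and integrated stress response genes, 14 lay below 0, against 8917 of all 14860 genes. At an unadjusted p below 0.05 there were 8 below and 0 above 0, against 11.3% and 4.2% of all genes, and limma called none. The median was -0.45. The median KO effect was -0.29 and the median WT effect 0.15. Chac1 at -1.15 (adjusted p = 0.129, limma) and Herpud1 at -1.16 (adjusted p = 0.167, limma) were among the largest. Of 18 measured immediate early and MAPK feedback genes, 13 lay below and 5 above 0, of which 5 below and 1 above at an unadjusted p below 0.05, and Klf10 was called. In the EGF receptor system, 7 of 13 genes lay above and 6 below 0, of which 4 above and 1 below at an unadjusted p below 0.05. Among these were the receptor gene Erbb3 at 0.99 and the ligand genes Nrg1 at 1.90 and Nrg4 at -2.54, none of them called by limma. Tiparp belongs to the PARP family, and 0 of 12 other measured members reached an unadjusted p below 0.05 in limma.

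Responses in the same direction that were smaller in KO livers made up 35 of the 3446 probe sets with an unadjusted p below 0.05 and 0 of the 37 calls, although array weights or filters on dim or unnamed probe sets called 3 or 4. Ier3, an immediate early gene, read 8.44, 8.77 and 8.49 in KO TCDD, 8.18, 7.92 and 8.10 in KO corn oil, 8.52, 8.61 and 8.58 in WT TCDD and 7.24, 7.16 and 6.78 in WT corn oil livers. As for Cyp1a1, the induced levels overlapped and the KO corn oil level was above that of WT corn oil livers, giving an interaction of -1.01 ± 0.19 (SE, adjusted p = 0.0742, limma). Xdh, xanthine dehydrogenase, had effects of 0.08 in KO and 0.86 in WT livers and an interaction of -0.78 (adjusted p = 0.223, limma).

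**Figure D5:**
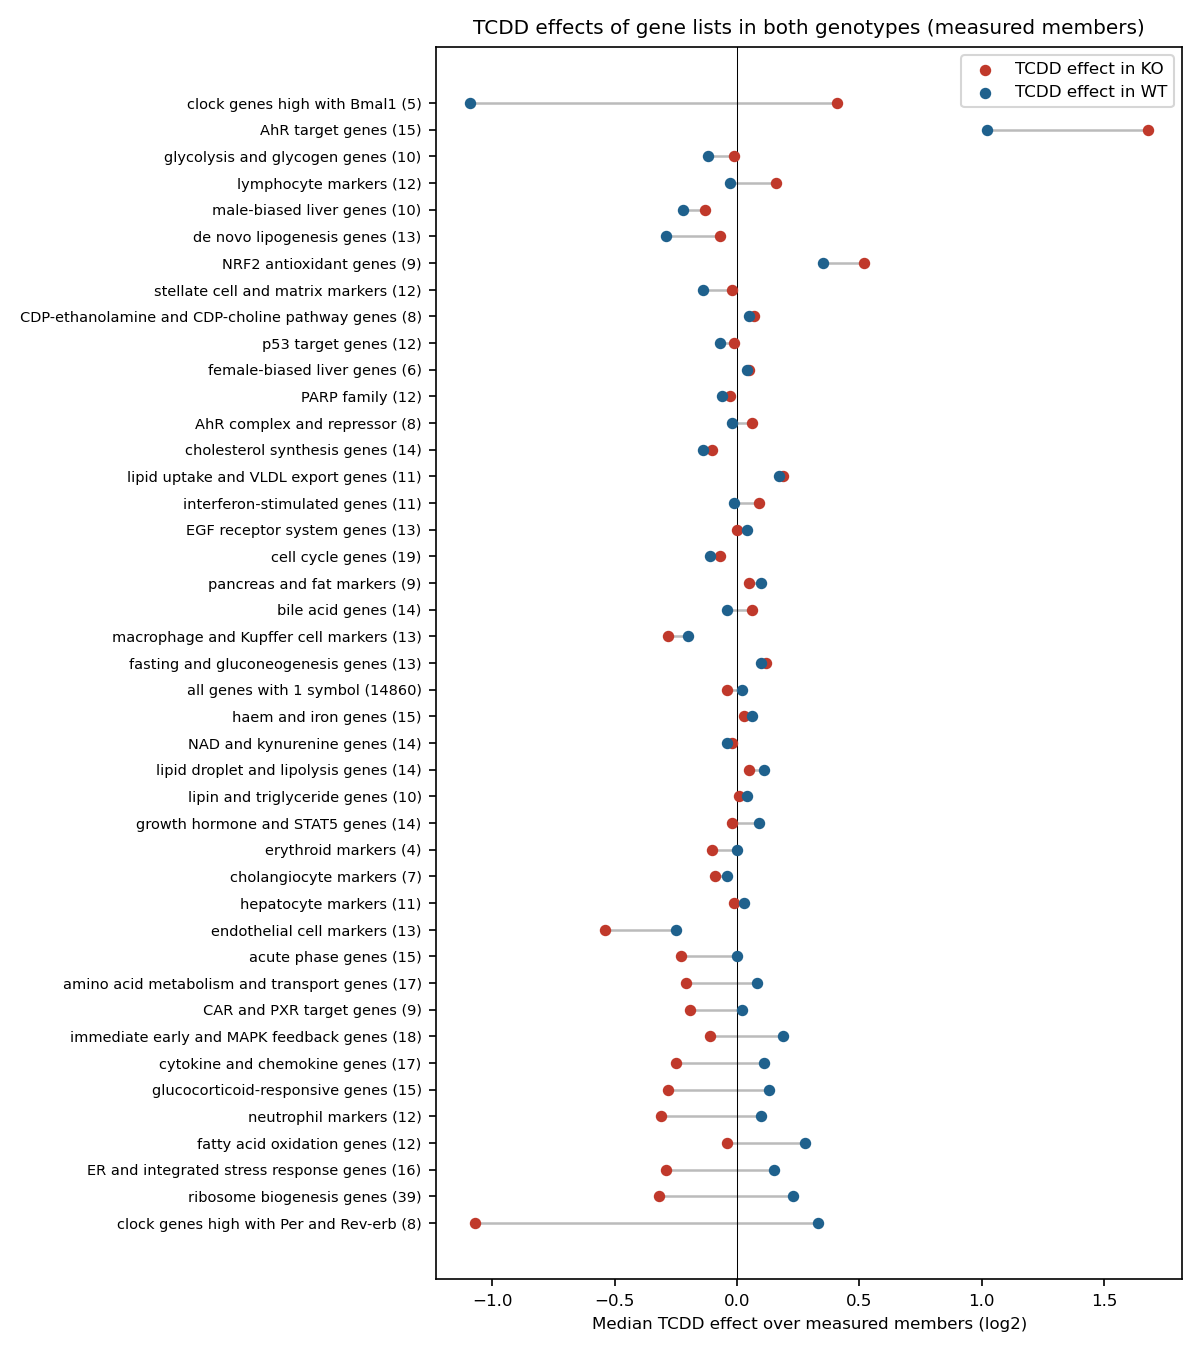
Median TCDD effect (log2) over the measured members of each gene list in KO (red) and WT (blue) livers, lists ordered by the median interaction, with the number of measured members in brackets. The lists farthest from equal effects are the clock lists, with median interactions of 0.98 and -1.60.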

How the data were processed

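Liver RNA of 12 mice was hybridised to Affymetrix GeneChip Mouse Exon 1.0 ST arrays, 1 sample per array. The authors deposited 1 normalized log2 value per probe set and array, made in Affymetrix Expression Console with RMA against mm9, per the submitters' processing notes. RMA sets all arrays to 1 distribution before summarising probes, so a true shift of all genes cannot be seen, and probe values at the dim end are compressed. Medians of the summarised values still differed slightly between arrays. The deposited values have 2 decimals. Raw intensities were not used here, so detection above background is unknown. No array repeated another (0 identical pairs), and 0 columns belonged to other series.

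All 23332 probe sets of the 12 arrays were fitted with limma 3.58.1 in R 4.3.3, with 1 mean per group (4 groups of 3), no covariates, empirical Bayes moderation (8 residual and 2.19 prior degrees of freedom) and Benjamini-Hochberg adjustment over all probe sets. The interaction, the TCDD effect in each genotype and the genotype difference under each treatment are contrasts of that fit and share arrays. Symbols came from the platform annotation: 14996 probe sets had 1 symbol (14860 genes), 1019 several and 7317 none. Where a gene had several probe sets, the one with the highest mean over all arrays stood for it in the lists. The fit was tested on simulated data.

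The rule for naming genes took Tiparp and 5 other AhR genes (Cyp1a1, Cyp1a2, Cyp1b1, Ahrr and Nqo1) and, among called probe sets with 1 symbol, the 10 largest interactions on each side of 0, the 4 largest of each farthest group and direction with clear cases, up to 8 each with opposite called effects or a smaller KO effect, and up to 3 of each list with at least 2 called members. The 42 gene lists held 637 genes, 511 of them measured, and 2 of the lists were added after the called genes were seen. Members and lists were chosen with earlier results of these data known. Promoter windows are RefSeq sequences on GRCm38.p6, matched by symbol. Alternatives were moderation, array weights, normalization, filters on dim or unnamed probe sets, thresholds, the replicate number as a block, the clock index as a covariate and leaving out each array.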

Additional observations from a re-analysis of the deposited data

Results flagged for a closer look

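The TCDD effects differed between genotypes by the interaction test in 37 probe sets. In 13 called genes, which were picked from these same values, the arrays of the treatments did not overlap in either genotype and moved in opposite directions. Of all probe sets 1.6% had this pattern. Of these, Rnf125 had an interaction of 2.88, Gm7180 of 2.06, D930048N14Rik of 1.52 and Acacb of 1.47, with the KO effect above 0 and the WT effect below it. The other 9 had the KO effect below 0 and the WT effect above it: the interactions were -1.39 for Ccne1, -1.36 for Klf10, -1.27 for Znrd1, -1.11 for Slc35a4, -1.09 for Yrdc, -0.92 for Dda1, -0.76 for Rcl1, -0.76 for Ccdc137 and -0.73 for Imp3. None of the 13 had a called WT effect, so the opposite direction in WT livers did not hold after adjustment. It rests on the order of the arrays and, for some genes, on an unadjusted p. Of all 23 opposite calls, 14 had an unadjusted p below 0.05 for both effects in limma.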

How the results depend on the processing

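Counts of calls depended strongly on the settings, and the cause was not tested. Robust moderation, 1 weight per group and median centring gave counts within 1.5 times of those reported. Counts that moved further are given here, in each case as calls with an adjusted p below 0.05 in limma. Trended moderation gave 57 calls, 26 below 0, 37 with opposite effects and 29 with KO corn oil farthest. Quantile normalization gave 61, with 51 above 0, 31 larger in KO livers and 34 with KO TCDD farthest. Array weights gave 693, with 233 above and 460 below 0. Of these 150 were larger in KO, 3 smaller and 540 opposite, with KO TCDD farthest in 198, KO corn oil in 431, WT TCDD in 18 and WT corn oil in 46. Without the lowest 25% of probe sets there were 149, with 66 above and 83 below 0, 50 larger, 3 smaller and 96 opposite, and KO TCDD farthest in 58, KO corn oil in 80, WT TCDD in 4 and WT corn oil in 7. Without the lowest 50% there were 396, with 135 above and 261 below 0, 97 larger, 4 smaller and 295 opposite, and KO TCDD farthest in 118, KO corn oil in 246, WT TCDD in 6 and WT corn oil in 26. With only probe sets of 1 symbol there were 162, with 60 above and 102 below 0, 53 larger, 3 smaller and 106 opposite, and KO TCDD farthest in 63, KO corn oil in 84, WT TCDD in 4 and WT corn oil in 11. The adjusted p threshold of 0.01 left 0 in each of these counts (3446 at an unadjusted p below 0.05), and the clock index as a covariate, added after seeing the data, also left 0 in each (2379) and turned the uncalled Cyp1a2 to 0.11. Asking for at least 1 in log2 left 6 below 0, 15 opposite and 1 with WT corn oil farthest. Clear cases alone left 7 with KO corn oil and 0 with WT corn oil farthest, and 14 of the opposite calls had an unadjusted p below 0.05 in both genotypes. The NRF2 list median was 0.50 without the lowest 25% of probe sets.

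Leaving out 1 array at a time gave 0 to 546 calls, 0 to 156 above and 0 to 390 below 0, 0 to 132 larger, 0 to 4 smaller and 0 to 410 opposite, and KO TCDD farthest in 0 to 73, KO corn oil in 0 to 450, WT TCDD in 0 to 6 and WT corn oil in 0 to 17. The numbers of the replicates are shared by the groups but give no sign of pairing: deviations of arrays with the same number correlated at -0.208 to 0.114 over 18 pairs (median -0.0261), and 2 of 12 arrays correlated best with their own number. With the replicate block limma called 0 probe sets in each count (3246 at an unadjusted p below 0.05).

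Dim probe sets with values near the bottom of the scale understate fold changes, and their detection above background is unknown. With 3 arrays a group, adjusted p-values of the calls lie between 0.0242 and 0.0484, close to the threshold.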
